A study of Mus musculus with 15 samples.

Results

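CC chemokines are small secreted proteins with adjacent cysteines near the amino terminus that steer leukocytes through receptors coupled to G proteins. Fractalkine, the product of Cx3cl1, carries its chemokine domain on a mucin stalk anchored in the cell membrane and can be shed from it. The genes Ccl2, Ccl7, Ccl11, Ccl12, Ccl8, Ccl17, Ccl22, Cx3cl1 and Ccl20 were taken by name, and all 9 had a value among 13513 named genes. In the injured heart, stromal cells are a known source of the monocyte chemoattractants Ccl2 and Ccl7, whose receptor Ccr2 marks inflammatory monocytes. Ccl12 is a further mouse ligand of Ccr2, mouse Ccl8 acts through Ccr8, and Ccl11 (eotaxin) draws eosinophils through Ccr3. Ccl17 and Ccl22 share the T cell receptor Ccr4, Ccl20 binds Ccr6, and fractalkine binds Cx3cr1 on monocytes and macrophages.

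Affymetrix arrays measured RNA from wild-type C57BL/6 mice aged 8 to 12 weeks in 3 groups of 5 arrays. EpiSC were epicardial stromal cells that mild shear released from the surface of collagenase-perfused hearts 5 days after myocardial infarction, aCF were ventricular fibroblasts of hearts at the same time after infarction, and CF were ventricular fibroblasts of unstressed hearts, which were not sheared. The submitters compared EpiSC with aCF and aCF with CF, and EpiSC against CF was added here. No sham operation is named, so surgery and infarction cannot be told apart, nor can cell type and isolation between EpiSC and aCF. Since CF hearts were not sheared, aCF against CF may also differ in isolation. In EpiSC against CF, cell type, injury and isolation cannot be told apart. The fibroblast fractions were separated from muscle cells by strainers and a slow spin, and the sources used here do not give a later sort, so each group is a cell fraction that may hold other cells.

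Values are log2 expression from which the authors had subtracted the median of all 15 arrays, probe set by probe set. Only differences between arrays are therefore measured, and neither the level of a chemokine nor its signal over background can be read from them. The names rest on an inferred displacement between identifiers and values that no source states. Values were read 6900 rows below their identifier on chromosomes 1 to 9 and X, and 6903 rows below it on chromosomes 10 and 11. For 27 cell cycle genes, the mean pairwise correlation of deviations from group means was 0.255 at an offset of 6900 rows, at most 0.127 at any other of 10353 offsets scanned, and 0.0085 as deposited. The extra 3 rows decide which values Ccl2, Ccl7, Ccl11, Ccl12 and Ccl8 carry, because these genes have adjacent identifiers on chromosome 11. Col1a1, 66 identifiers beyond Ccl8, correlated with Col1a2 of another chromosome at r = 0.99 with the extra 3 rows, the highest of 21 extra offsets tried, against 0.646 without them and 0.754 as deposited. Near the chromosome 8 members, Cdh5, 16 identifiers beyond Ccl17, correlated with the mean of 8 other endothelial markers at r = 0.961 with no extra offset, again the highest of the 21. The next best extra offset gave 0.919 there, and the deposited order -0.289.

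The arrays grouped by label, and each of the 15 correlated best with an array of its own group. Correlations between arrays were 0.551 to 0.671 within EpiSC, 0.213 to 0.54 within aCF and 0.743 to 0.845 within CF, and since values centred on all arrays lower them for a group near the middle, they do not rank the groups by spread. On the first principal component aCF4 (6.35) and aCF5 (4.48) lay nearer to EpiSC (25.3 to 38.5) than aCF1 (-4.51), aCF2 (-1.64) and aCF3 (-3.12) did. Results that rest on aCF4 and aCF5 are given with and without them. With limma and Bonferroni adjustment, 3 of 7 measured epicardial and mesothelial markers passed higher in EpiSC than in aCF and 0 lower. Over all probe sets 0.666% passed in this comparison. Wt1, an epicardial transcription factor, was among the markers that passed (2.01 ± 0.18 on the log2 scale, SE). Aldh1a2 (-0.018 ± 0.14) and Tbx18 (0.10 ± 0.16), of the same list, did not pass. By the same test 4 of 9 fibroblast markers passed higher in aCF than in CF and 1 lower, Ddr2 (-0.69 ± 0.06). Col1a1 and Col1a2 were both among the 4, and their correlation was also used above for the extra 3 rows. The pass of Col1a1 is therefore not separate from that of Col1a2. Over all probe sets 1.53% passed in aCF against CF.

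No member passed the test named in the series design text, limma's moderated test with Bonferroni adjustment over all 22206 probe sets, in any comparison. There, 0 of 9 passed for EpiSC against aCF, where 0.666% of all probe sets did. For aCF against CF 0 of 9 passed (1.53% of all probe sets), as did 0 of 9 for EpiSC against CF (2.91%). At an unadjusted p under 0.05 the counts were 5 of 9 (23.9% of all probe sets), 5 of 9 (31.1%) and 3 of 9 (42.7%). With Benjamini-Hochberg adjustment over the same probe sets, 3 of 9 passed for EpiSC against aCF (9.61% of all probe sets). The count was 4 of 9 for aCF against CF (18.1%), while EpiSC against CF had 1 of 9 (32.2%). The words passed and higher or lower below refer to this second adjustment unless Bonferroni is named. The median log2 difference of the members was 0.22 between EpiSC and aCF (0.01 over all probe sets), -0.048 between aCF and CF (-0.022) and 0.14 between EpiSC and CF (-0.008). In bulk RNA, fewer cells of a type and less RNA per cell cannot be told apart.

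**Figure D1:**
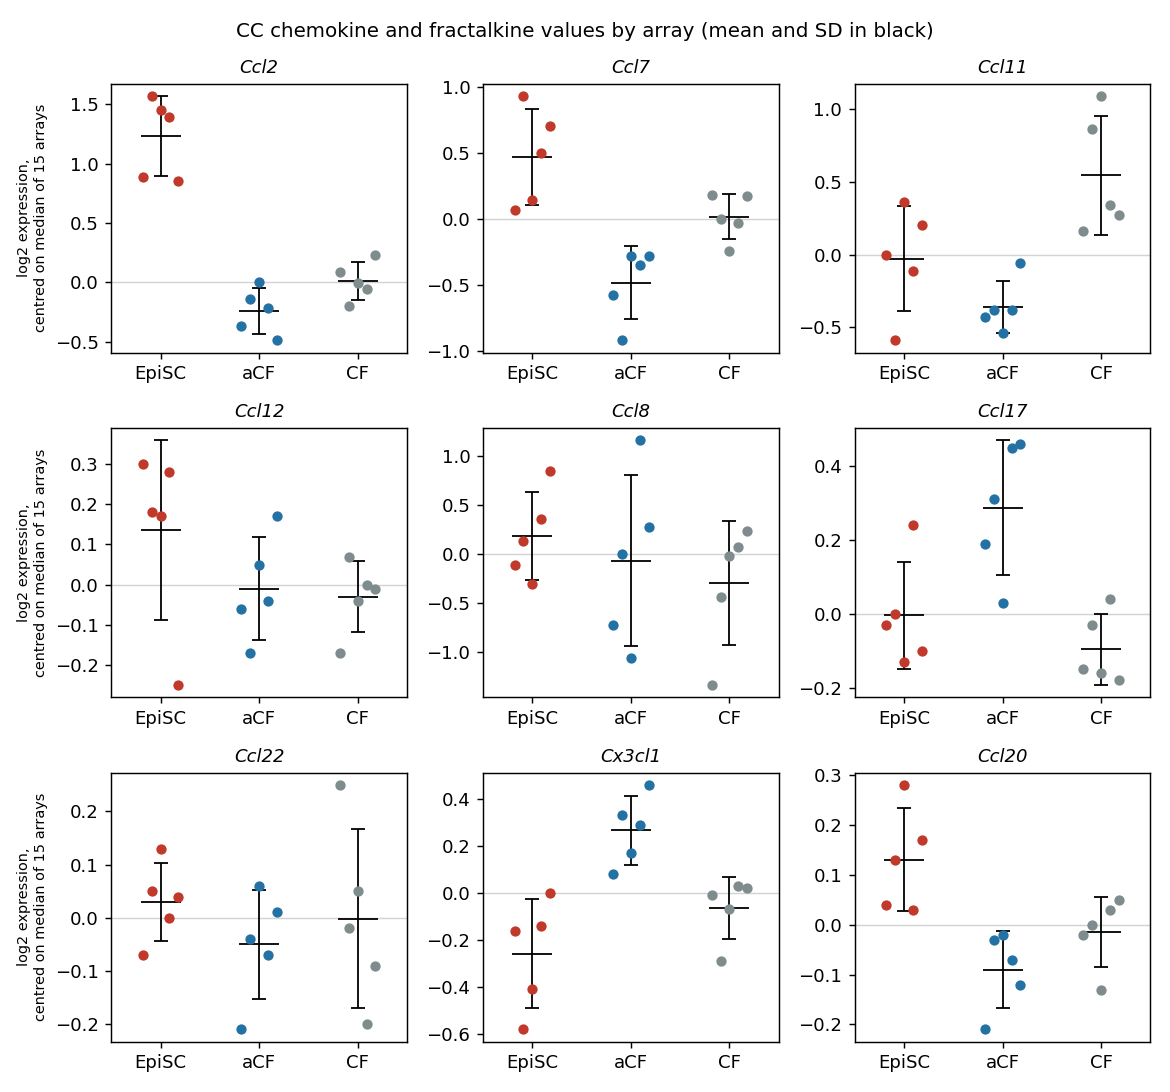
Each panel plots 1 gene, with the group on the horizontal axis and log2 expression centred on the median of the 15 arrays on the vertical axis, a point per array, and the mean and SD in black. Ccl2 stands highest in the 5 EpiSC arrays (0.85 to 1.57), Ccl11 is highest in CF, and Cx3cl1 is highest in aCF, while the groups mix for Ccl8, Ccl12 and Ccl22.

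Ccl2 was the member with the largest difference between EpiSC and aCF. Its centred log2 values were 0.89, 1.57, 1.45, 1.39 and 0.85 in EpiSC, -0.37, -0.14, 0, -0.22 and -0.49 in aCF, and 0.09, -0.20, -0.01, -0.06 and 0.23 in CF. Every EpiSC array lay above every aCF and CF array, while aCF and CF overlapped. EpiSC exceeded aCF by 1.47 ± 0.16 (SE, n = 5 arrays per group), a 2.78-fold difference. The difference passed in limma with Benjamini-Hochberg adjustment (adjusted p = 0.000375) and missed with Bonferroni (adjusted p = 0.0604). With 1 array left out, the limma Bonferroni adjusted p was 0.0466 without EpiSC5 and 0.0686 to 0.338 in the other omissions. EpiSC exceeded CF by 1.22 ± 0.15, 2.33-fold (limma, Benjamini-Hochberg adjusted p = 0.000223, Bonferroni adjusted p = 0.223). The monocyte chemoattractant was thus higher in the epicardial fraction than in either fibroblast fraction. Between aCF and CF it differed by -0.25 ± 0.11, with a 95% interval of -0.49 to -0.018, and did not pass (limma, adjusted p = 0.132). Without aCF4 and aCF5 the EpiSC against aCF difference was 1.40 and still passed (limma, adjusted p = 0.00553).

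Ccl7, its neighbour on chromosome 11, had the same order of group means. The centred log2 values of Ccl7 were 0.07, 0.93, 0.14, 0.50 and 0.70 in EpiSC, -0.58, -0.92, -0.28, -0.35 and -0.28 in aCF, and 0.18, 0, -0.24, -0.03 and 0.17 in CF. The aCF arrays lay below every array of both other groups, and EpiSC and CF overlapped. EpiSC exceeded aCF by 0.95 ± 0.19, 1.93-fold (limma, adjusted p = 0.00992), and by 1.06 without aCF4 and aCF5 (adjusted p = 0.031). Ccl7 was also lower in aCF than in CF by -0.50 ± 0.13 (limma, adjusted p = 0.0258), and EpiSC against CF did not pass (0.45 ± 0.16, adjusted p = 0.0593), although it did without EpiSC1 (adjusted p = 0.0249) or EpiSC3 (0.0361). The aCF against CF call of Ccl7 was lost without CF1 (adjusted p = 0.0644), CF2 (0.0511) or CF5 (0.0597), and held without aCF4 and aCF5 (-0.61, adjusted p = 0.0354). Over the 15 arrays the values of Ccl2 and Ccl7 correlated at r = 0.77, which includes the differences between groups. Their deviations from group means correlated weakly (r = 0.202), so within a group, arrays high in one were not regularly high in the other.

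Ccl11, the eotaxin gene, had its highest mean in CF. Its centred log2 values were 0, -0.59, 0.36, -0.11 and 0.20 in EpiSC, -0.43, -0.38, -0.54, -0.38 and -0.06 in aCF, and 0.16, 0.86, 1.09, 0.34 and 0.27 in CF. All aCF arrays lay below all CF arrays, and the EpiSC arrays overlapped both. The aCF values were lower than the CF values by -0.90 ± 0.18, a 1.87-fold difference (limma, adjusted p = 0.00581), and this passed in all 10 omissions of 1 array and without aCF4 and aCF5 (-0.99, adjusted p = 0.0191). EpiSC differed from CF by -0.57 ± 0.22 (limma, adjusted p = 0.07) and from aCF by 0.33 ± 0.17 (adjusted p = 0.263), neither of which passed, although the first passed without EpiSC3 (adjusted p = 0.049).

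Ccl12 and Ccl8 complete the cluster on chromosome 11. Ccl12 ranged from -0.25 to 0.30 in EpiSC, -0.17 to 0.17 in aCF and -0.17 to 0.07 in CF. Its difference between aCF and CF was 0.02, with a 95% interval of -0.14 to 0.18 on the log2 scale, and that between EpiSC and aCF was 0.15 (-0.10 to 0.39). Against CF, EpiSC differed by 0.17 ± 0.10 for Ccl12 (limma, adjusted p = 0.253), and by 0.26 without EpiSC5 (adjusted p = 0.0152). Ccl8 had values of -0.11, 0.13, -0.31, 0.36 and 0.85 in EpiSC, -0.73, 0, -1.06, 1.16 and 0.27 in aCF, and -1.34, -0.44, -0.02, 0.07 and 0.23 in CF. Its arrays spread over 2.5 log2 units with the groups mixed, and 92.8% of all probe sets had a smaller SD. The 95% intervals of Ccl8 were -0.61 to 1.12 for EpiSC against aCF and -0.71 to 1.16 for aCF against CF, so differences within these bounds could not be told from 0. The adjacent genes of this cluster did not share 1 pattern across the groups. Ccl2 and Ccl12 are closely related in sequence, and whether their probes read each other's RNA was not tested.

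On chromosome 8, Ccl22, Cx3cl1 and Ccl17 also have neighbouring identifiers. Cx3cl1 had centred log2 values of -0.16, -0.58, -0.41, -0.14 and 0 in EpiSC, 0.08, 0.33, 0.17, 0.29 and 0.46 in aCF, and -0.01, -0.29, -0.07, 0.03 and 0.02 in CF. Every aCF array lay above every array of the other groups. EpiSC were lower than aCF by -0.52 ± 0.12, a 1.44-fold difference (limma, adjusted p = 0.0201), and aCF were higher than CF by 0.33 ± 0.09, 1.26-fold (limma, adjusted p = 0.0253). Fractalkine RNA was thus highest in the fibroblast fraction of the infarcted ventricle, but the calls were fragile. Without aCF4 and aCF5 the differences were -0.45 (limma, adjusted p = 0.1) and 0.26 (adjusted p = 0.129). The first was lost without aCF2 (adjusted p = 0.0514), and the second without aCF2, aCF4, aCF5, CF2 or CF3 (adjusted p = 0.0521 to 0.0549).

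Ccl17 had values of -0.03, 0, -0.13, 0.24 and -0.10 in EpiSC, 0.19, 0.31, 0.03, 0.45 and 0.46 in aCF, and -0.15, -0.03, -0.16, 0.04 and -0.18 in CF. The highest values were those of aCF4 and aCF5, and 1 aCF array fell within the range of CF. Ccl17 was higher in aCF than in CF by 0.38 ± 0.09, 1.30-fold (limma, adjusted p = 0.0145), but by 0.27 without aCF4 and aCF5 (adjusted p = 0.0822). EpiSC differed from aCF by -0.29 ± 0.10 and did not pass (limma, adjusted p = 0.11). Ccl22, which shares the receptor Ccr4 with Ccl17, stayed between -0.21 and 0.25 on all 15 arrays. Its 95% intervals were -0.07 to 0.23 for EpiSC against aCF and -0.24 to 0.15 for aCF against CF. Neither interval held the Ccl17 difference of the same comparison (-0.29 and 0.38).

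Of these neighbours, Cx3cl1 and Ccl17 both had their highest mean in aCF, while Ccl22 passed in no comparison. The 250 bases before the start sites of this trio are from RefSeq on GRCm38.p6. All lie on the plus strand, Ccl22 at chr8:94745434-94745683, Cx3cl1 at chr8:94771930-94772179 and Ccl17 at chr8:94810203-94810452. Capitals mark matches to the TATA box letters TATAAA or the STAT site letters TTCNNNGAA.
Ccl22: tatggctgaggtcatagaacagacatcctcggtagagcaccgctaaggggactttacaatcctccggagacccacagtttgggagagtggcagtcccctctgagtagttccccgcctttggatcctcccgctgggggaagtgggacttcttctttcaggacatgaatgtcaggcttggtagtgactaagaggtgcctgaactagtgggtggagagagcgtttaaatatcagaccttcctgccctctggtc
Cx3cl1: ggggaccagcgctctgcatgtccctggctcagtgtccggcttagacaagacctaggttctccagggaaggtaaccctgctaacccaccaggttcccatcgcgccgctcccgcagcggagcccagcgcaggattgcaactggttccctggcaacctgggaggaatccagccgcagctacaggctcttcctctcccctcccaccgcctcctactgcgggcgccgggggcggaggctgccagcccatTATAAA
Ccl17: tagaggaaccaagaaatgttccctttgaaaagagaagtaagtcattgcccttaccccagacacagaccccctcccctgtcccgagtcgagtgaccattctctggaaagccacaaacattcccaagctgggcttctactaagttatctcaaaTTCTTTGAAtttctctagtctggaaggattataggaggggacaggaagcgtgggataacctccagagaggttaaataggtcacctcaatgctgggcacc
Both strands were searched for these and for the kappaB motif and the AP-1 letters TGANTCA, with no overlap between matches. Ccl17 held a STAT match (TTCTTTGAA), as 7.18% of 27025 promoter windows did, and the TATA letters stood at the last 6 bases before the Cx3cl1 start (13% of windows held them). Of the 9 members 6 were matched to the RefSeq table, namely these and Ccl12, Ccl8 and Ccl20. Among the 6, the TATA letters also stood 31 to 26 bases before the start of Ccl12 and 32 to 27 before that of Ccl8, the kappaB motif was found for Ccl20 alone (1.4% of windows) and the AP-1 letters for none (6.87%). Ccl2, Ccl7 and Ccl11 were not matched.

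Ccl20, the ligand of Ccr6, varied little. Its centred log2 values were 0.04, 0.13, 0.28, 0.03 and 0.17 in EpiSC, -0.21, -0.03, -0.02, -0.07 and -0.12 in aCF, and -0.02, 0, -0.13, 0.03 and 0.05 in CF. The EpiSC arrays lay above all aCF arrays, yet the difference of 0.22 ± 0.07 did not pass (limma, adjusted p = 0.0746). Only 19.0% of all probe sets had a smaller SD over the 15 arrays than Ccl20, and 16.8% than Ccl22. Whether these small differences lie above background cannot be read from centred values. The arrays of EpiSC and aCF did not overlap for 4 of the 9 members (9.91% of all probe sets), those of aCF and CF for 3 (14.7%) and those of EpiSC and CF for 1 (23.4%).

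**Figure D2:**
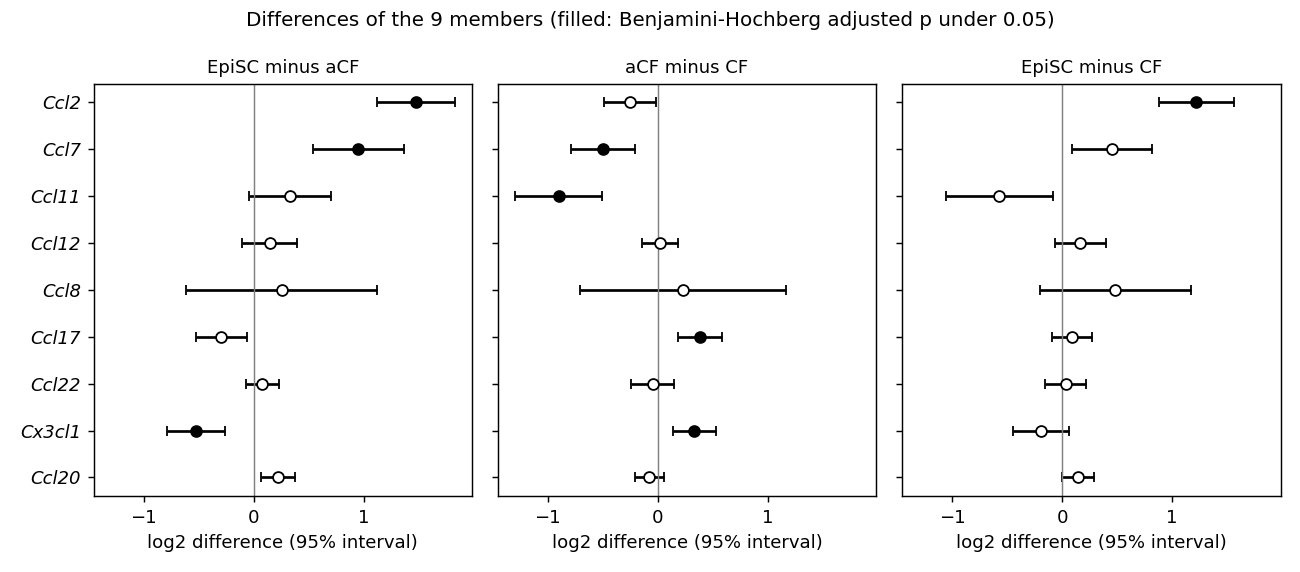
Log2 differences (horizontal axis, with 95% intervals) are plotted for the 9 members in each comparison, and filled points passed limma with Benjamini-Hochberg adjustment. Ccl2 (1.47) and Ccl7 (0.95) lead EpiSC against aCF, Ccl11 (-0.90) leads aCF against CF, and only Ccl2 (1.22) is filled in EpiSC against CF.

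The receptors gave the other side of the axis. Of the 17 receptors listed 13 were measured, and of these 1 passed higher and 4 lower in aCF than in CF, 0 higher and 3 lower in EpiSC than in CF, and 1 higher and 0 lower in EpiSC than in aCF, and 0 passed with Bonferroni adjustment in any of them. Over all probe sets 18.1% passed in aCF against CF, 32.2% in EpiSC against CF and 9.61% in EpiSC against aCF, so a receptor count near these shares says nothing particular about receptors. The atypical receptors bind chemokines without classical signalling. Ackr1, which takes up and transports CC and CXC chemokines, ranged from -0.20 to 0.37 in EpiSC, -0.71 to -0.12 in aCF and 0.40 to 0.78 in CF. It was lower in aCF than in CF by -1.0 ± 0.11 (limma, adjusted p = 0.000187) and lower in EpiSC than in CF by -0.55 ± 0.11 (adjusted p = 0.00437). Its higher value in EpiSC than in aCF (0.45 ± 0.13, adjusted p = 0.0478) held only without EpiSC5 or aCF3 among the 10 omissions, and neither without aCF4 and aCF5 (adjusted p = 0.174) nor in a trended and robust fit (adjusted p = 0.0775). Ackr2, a scavenger of inflammatory CC chemokines such as Ccl2 and Ccl11, ranged from -1.03 to 0.03 in EpiSC, -1.02 to 0.35 in aCF and 0.57 to 1.25 in CF. All CF arrays lay above all arrays of the other groups, and Ackr2 was lower than in CF by -1.44 ± 0.21 in EpiSC (limma, adjusted p = 0.000603) and by -1.33 ± 0.26 in aCF (adjusted p = 0.00513).

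Ccrl2, which presents chemerin, was lower in aCF than in CF by -0.79 ± 0.11 (limma, adjusted p = 0.000793). Cx3cr1, the fractalkine receptor, was, like its ligand, higher in aCF than in CF by 0.44 ± 0.12 (limma, adjusted p = 0.0249), a call lost without aCF2, CF2, CF3 or CF4 and without aCF4 and aCF5 (adjusted p = 0.0674). Ccr8, through which Ccl8 acts, was lower than in CF by -0.23 ± 0.07 in aCF (limma, adjusted p = 0.0377) and by -0.28 ± 0.08 in EpiSC (adjusted p = 0.0198). Ccr2, the receptor of Ccl2, Ccl7 and Ccl12, differed by -0.042 ± 0.054 between EpiSC and CF. Its differences were 0.048 ± 0.049 between aCF and CF and -0.09 ± 0.061 between EpiSC and aCF, and it passed in no comparison. The 2 comparisons with CF share its arrays, so their values for Ackr1, Ackr2 and Ccr8 are not independent.

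**Figure D3:**
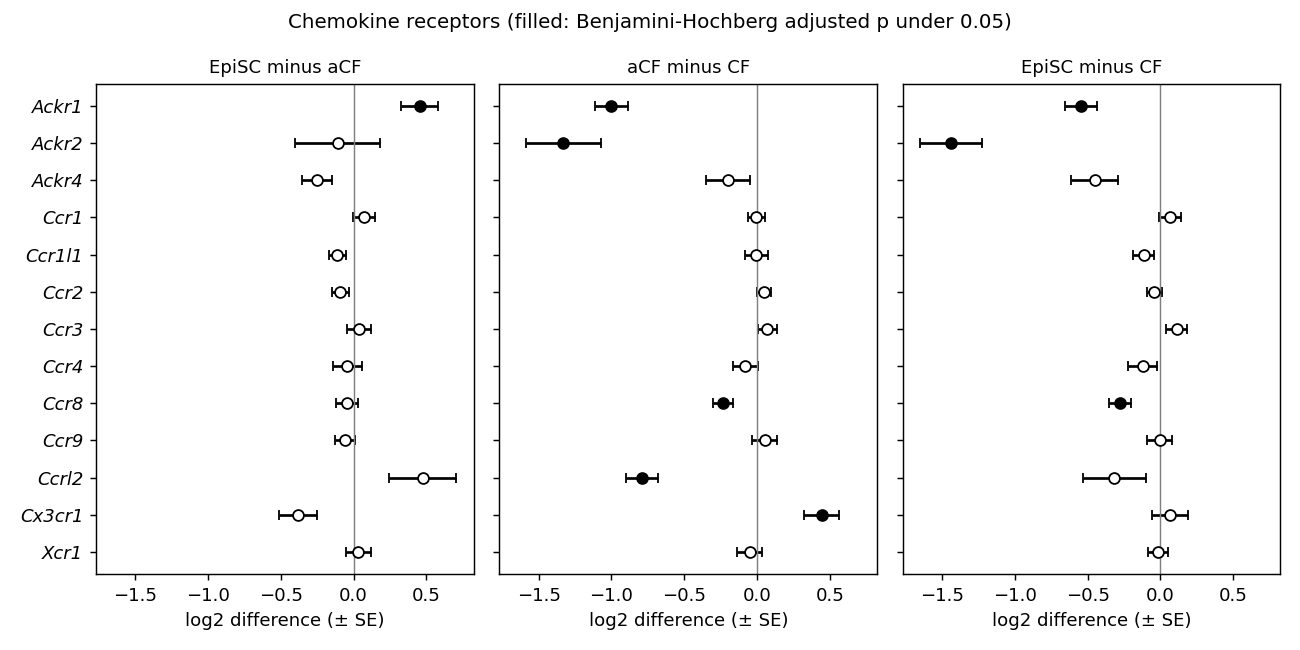
Log2 differences with SE (horizontal axis) are plotted for the 13 measured receptors in each comparison, and filled points passed limma with Benjamini-Hochberg adjustment. Ackr2 (-1.44 and -1.33) and Ackr1 (-0.55 and -1.0) lie below 0 in both comparisons with CF.

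Further lists held genes that act on or upstream of chemokines, and their counts are to be read against the same shares of all probe sets (9.61% for EpiSC against aCF, 18.1% for aCF against CF and 32.2% for EpiSC against CF). Of 25 genes listed for the NF-kB and innate cytokine pathway 16 were measured, and 3 passed higher and 0 lower in EpiSC than in aCF, 0 higher and 4 lower in aCF than in CF, and 5 higher and 1 lower in EpiSC than in CF. Tnfaip3, a feedback inhibitor and target of NF-kB, ranged from 0.88 to 1.63 in EpiSC, -0.32 to 0.09 in aCF and -0.67 to 0 in CF. It exceeded aCF by 1.28 ± 0.16 (limma, adjusted p = 0.00095) and CF by 1.56 ± 0.17 (adjusted p = 0.000102), so EpiSC stood apart for it as for Ccl2. Relb, an NF-kB subunit, was higher in EpiSC than in aCF by 0.43 ± 0.09 (limma, adjusted p = 0.0146). Unlike Tnfaip3, Relb did not pass in EpiSC against CF (0.17 ± 0.08, limma, adjusted p = 0.156). It was lower in aCF than in CF (-0.26 ± 0.08, limma, adjusted p = 0.0375). Of the 9 measured genes (15 listed) of the interleukin 4, interleukin 13 and interferon gamma pathway, 1 passed higher and 1 lower in EpiSC than in aCF. The counts were 1 higher and 4 lower in aCF than in CF, and 4 higher and 4 lower in EpiSC than in CF. Il13ra1, a receptor chain for both interleukins, passed Bonferroni adjustment in aCF against CF (1.07 ± 0.08, limma, adjusted p = 0.00168) and in EpiSC against CF (1.34 ± 0.05, adjusted p = 3.18e-06). Stat6, of the same list, was lower than in CF by -0.28 ± 0.07 in aCF (limma, Benjamini-Hochberg adjusted p = 0.0167) and by -0.41 ± 0.09 in EpiSC (adjusted p = 0.00789). Ifngr1, an interferon gamma receptor chain, was lower in aCF than in CF by -0.61 ± 0.09 (limma, Benjamini-Hochberg adjusted p = 0.00131). It was lower in EpiSC than in CF by -1.44 ± 0.08 (limma, Bonferroni adjusted p = 0.000107) and than in aCF by -0.83 ± 0.08 (Bonferroni adjusted p = 0.0162). The call against aCF held only without EpiSC5, aCF2 or aCF3 among 10 omissions, and was lost under quantile normalization (Bonferroni adjusted p = 0.666) and in a trended and robust fit (adjusted p = 1).

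Of 5 measured proteases (8 listed) that process chemokines, 2 passed higher and 2 lower in aCF than in CF, 0 higher and 2 lower in EpiSC than in aCF, and 2 higher and 2 lower in EpiSC than in CF, where 18.1%, 9.61% and 32.2% of all probe sets passed. Ctss (cathepsin S) was higher in aCF than in CF by 1.0 ± 0.08 (limma, Bonferroni adjusted p = 0.00213). It was lower in EpiSC than in aCF by -0.85 ± 0.12 (limma, Benjamini-Hochberg adjusted p = 0.00184). Between EpiSC and CF it did not pass (0.16 ± 0.11, adjusted p = 0.3). Dpp4, which trims the amino terminus of Ccl11 and Ccl22, was lower in aCF than in CF by -1.41 ± 0.23 (limma, Benjamini-Hochberg adjusted p = 0.002). Mmp2, which cleaves Ccl7, was lower in EpiSC than in aCF by -0.47 ± 0.08 (limma, adjusted p = 0.00317). Among 7 other measured ligands (14 listed) 0 passed in EpiSC against aCF (2 higher at an unadjusted p under 0.05), 1 higher and 0 lower in aCF than in CF, and 2 higher and 1 lower in EpiSC than in CF. Ccl24, a further Ccr3 ligand, was higher in EpiSC than in CF by 0.56 ± 0.15 (limma, adjusted p = 0.0166), and Ccl27a exceeded CF by 0.84 ± 0.11 in EpiSC (adjusted p = 0.000402) and by 0.57 ± 0.08 in aCF (adjusted p = 0.000643). Mouse Ccl27a has near-identical copies, and its probe set may read more than 1 of them.

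Markers of other cells moved with some members. Their counts are to be read against the shares of all probe sets that passed. These were 9.61% for EpiSC against aCF, 18.1% for aCF against CF and 32.2% for EpiSC against CF. At an unadjusted p under 0.05 the shares were 23.9%, 31.1% and 42.7%. The mean of 10 macrophage and monocyte markers ranged from -0.23 to -0.025 in EpiSC, 0.091 to 0.42 in aCF and -0.16 to 0.048 in CF, so it was highest in aCF, as were Cx3cl1, Ccl17 and Cx3cr1. Of these 10 markers 4 passed higher and 0 lower in aCF than in CF, among them Lyz2 (1.03 ± 0.17). In EpiSC against aCF 0 passed higher and 5 lower, and in EpiSC against CF 0 passed (1 higher at an unadjusted p under 0.05). The mean of 10 endothelial markers ranged from -0.84 to -0.61 in EpiSC, -0.16 to 0.41 in aCF and 0.20 to 0.56 in CF. Of these 10 markers 0 passed higher and 4 lower in EpiSC than in aCF, 1 higher and 2 lower in aCF than in CF, and 1 higher and 7 lower in EpiSC than in CF. The exceptions were Ptprb, higher in aCF than in CF by 1.14 (limma, adjusted p = 0.00235), and Esam, higher in EpiSC than in CF by 0.75 (adjusted p = 0.000573). The part of the macrophage and endothelial markers in the chemokine and receptor differences was not tested. Markers of dendritic cells, a known source of Ccl17 and Ccl22, had mean values of -0.079 to 0.15 in EpiSC, -0.11 to 0.063 in aCF and -0.11 to 0.014 in CF, with 0 of 7 passed in aCF against CF (0 at an unadjusted p under 0.05). Neutrophil markers had 0 of 6 passed in aCF against CF (0 at an unadjusted p under 0.05) and 0 in EpiSC against aCF (1 higher at an unadjusted p under 0.05). Lymphocyte markers had 1 of 8 higher and 0 lower in aCF than in CF. In EpiSC against CF, 2 of the 8 lymphocyte and 1 of the 7 dendritic cell markers passed higher, and 0 lower. In EpiSC against aCF 0 passed in either list (1 higher in each at an unadjusted p under 0.05). Neutrophil markers had 0 passed in EpiSC against CF (0 at an unadjusted p under 0.05). Which markers are near background cannot be told from centred values.

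**Figure D4:**
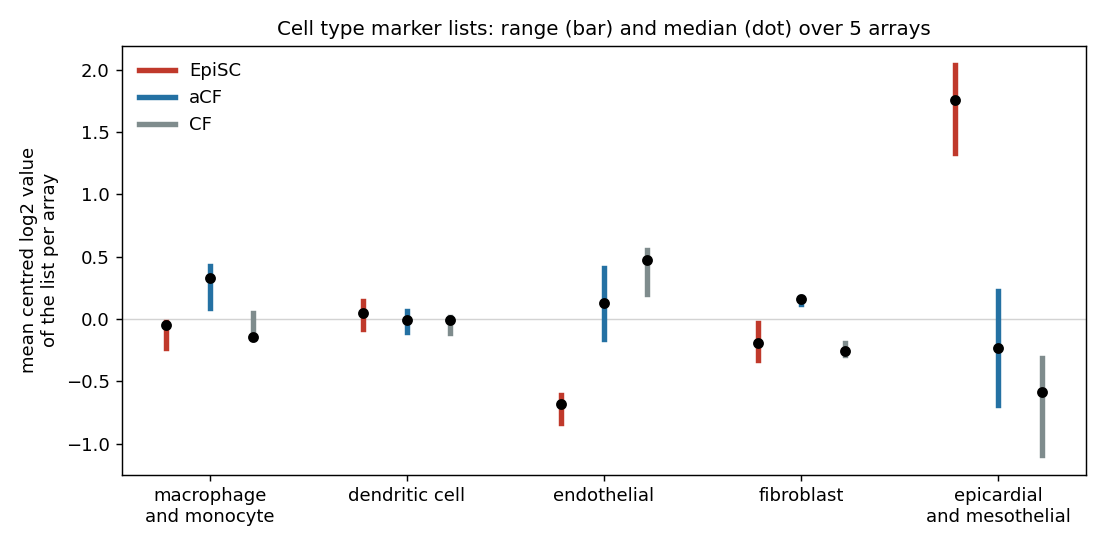
For 5 marker lists the mean centred log2 value per array (vertical axis) is shown as a bar from the lowest to the highest of 5 arrays and a dot at the median. The macrophage list is highest in aCF (median 0.33) and the endothelial list is highest in CF (0.47) and lowest in EpiSC (-0.68).

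The named genes whose values followed each member most closely over the 15 arrays are given as a description, since differences between groups enter these correlations. Ccl2 was followed by Smpd3 (r = 0.968), Wnt4 (0.965) and Slfn2 (0.963). Ccl7 was followed by Mrgprg (0.929), Dkc1 (0.901) and Gsta4 (0.895), and Ccl11 by Sox13 (0.949), Nap1l5 (0.917) and Dnm2 (0.912). For Cx3cl1 they were Septin11 (0.916), B630019K06Rik (0.915) and Cpxm2 (0.891), and for Ccl17 Rassf8 (0.934), Lmcd1 (0.91) and Nav3 (0.895). Ccl8 was nearest to Zyx (0.879), Pinlyp (0.864) and Gm5592 (0.826), Ccl12 to Ddc (0.859), Rpf2 (0.839) and Hax1 (0.831), Ccl20 to Spryd4 (0.876), Uroc1 (0.863) and Prss8 (0.858), and Ccl22 to Bclaf1 (0.768), Olig3 (0.751) and Cdk3 (0.746). No member was among the 3 nearest of another.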

How the data were processed

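Expression arrays of 15 samples were analysed, 5 per group, grouped by their GEO titles. The deposited values are log2 expression. In GeneSpring GX 12.5 the authors applied quantile normalization to the probe signals, then an exon-level RMA summary, then subtraction of each probe set's median, per the design text. No header names the log base. RMA works in base 2, which the range of -4.77 to 5.52 allows. All 22206 rows were tested, because centred values do not permit the authors' filter on the 20th percentile. The displacement paired 15303 rows with an identifier. Symbols came from the platform annotation, with 1 symbol for 19572 identifiers, several for 0 and none for 2634. The number of arrays limits the precision.

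For each pair of groups, lmFit and eBayes of limma 3.58.1 (R 4.3.3) were run on all rows, 2-sided, with a threshold of 0.05. Bonferroni adjustment follows the design text, and Benjamini-Hochberg adjustment was an alternative. The fit was tested on simulated data. Arrays of 1 group are biological replicates, per the design text. The members, lists and tests were chosen with earlier results of these data known. All members were named, with the 3 nearest genes of each by correlation. Of each pathway list 2 to 4 genes were to be named, those called in order of p and otherwise the 2 with the smallest p. Ccr2, Ccr8, Stat6, Lyz2, Wt1, Aldh1a2, Tbx18, Ddr2, Ptprb and Esam were named after their values were seen. Other alternatives were quantile normalization, a trended and robust fit, 1 fit of 3 groups, paired rows only, a filter on flat probe sets, a replicate block, other pairings and omitted arrays. Promoter sequences came from RefSeq, with 1 start per gene.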

Additional observations from a re-analysis of the deposited data

Results flagged for a closer look

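Ccl12 in EpiSC5 (-0.25) stood apart from the other EpiSC arrays (0.17 to 0.30), with a gap to the nearest of 0.764 of the group's range. This was 1 of 27 groups of 5 arrays examined, and chance gives about 1 in 20.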

How the results depend on the processing

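With Bonferroni adjustment 0 members passed in each comparison. For EpiSC against aCF, 1 member (Ccl2) passed under quantile normalization, 1 in a fit of all 3 groups, 1 over paired probe sets only, 1 without flat probe sets and 0 to 1 with 1 array left out. For EpiSC against CF, 1 (Ccl2) passed under quantile normalization and 1 in the fit of all 3 groups, and 0 with 1 array left out. Benjamini-Hochberg adjustment gave 3, 4 and 1 members for EpiSC against aCF, aCF against CF and EpiSC against CF, and 2 and 2 in the comparisons with aCF without aCF4 and aCF5, an omission chosen after seeing the data. By that adjustment the fit of all 3 groups added Ccl17 (adjusted p = 0.0478) and Ccl20 (0.0277) for EpiSC against aCF and Ccl11 (0.0354) for EpiSC against CF, and lost Ccl7 (0.059) and Cx3cl1 (0.0543) for aCF against CF. Ccl7 was lost for aCF against CF under quantile normalization (0.0556), and gained for EpiSC against CF under it (0.0492), over paired probe sets (0.0495) and without flat ones (0.0492), a filter that left out Ccl20 and Ccl22. Ctss missed Bonferroni adjustment for aCF against CF with the trended fit (0.126), as did Ifngr1 for EpiSC against aCF (1, and 0.666 under quantile normalization), and Ackr1, with the trended fit, missed Benjamini-Hochberg adjustment for EpiSC against aCF (0.0775). Over all probe sets, EpiSC against aCF had 148 calls, 97 with a trended and robust fit, 369 with all 3 groups, 2135 with Benjamini-Hochberg adjustment, 73 to 143 with 1 array left out, 50 without aCF4 and aCF5, and 1560 without them by Benjamini-Hochberg. For aCF against CF the 340 calls became 212 (trended), 4023 (Benjamini-Hochberg), 197 to 272 (1 array left out), 144 (without aCF4 and aCF5) and 2535 (without them, Benjamini-Hochberg). For EpiSC against CF the 647 calls became 1060 (all 3 groups), 7157 (Benjamini-Hochberg) and 369 to 557 (1 array left out). Correlations of same-numbered deviations between groups ran from -0.0504 to 0.172. Differently numbered arrays were not compared in this way, so whether the replicate numbers pair the samples was not settled. With the number as a replicate block the calls were 41, 94 and 166, with 1 member (Ccl2) passing for EpiSC against aCF. In aCF against CF the block lost the Benjamini-Hochberg calls of Ccl7 (0.0512) and Cx3cl1 (0.0526) and the Bonferroni calls of Ctss (0.145) and Il13ra1 (0.162), and in EpiSC against aCF that of Ifngr1 (0.96). With identifiers as deposited, the log2 differences turned sign for EpiSC against aCF in Ccl2 (-0.006), Ccl7 (-0.132), Ccl11 (-0.13), Ccl12 (-0.148), Ccl22 (-0.124) and Ccl20 (-0.032), for aCF against CF in Ccl2 (0.046), Ccl11 (0.102), Ccl12 (-0.158), Ccl22 (0.022) and Ccl20 (0.03), and for EpiSC against CF in Ccl7 (-0.722), Ccl12 (-0.306), Ccl22 (-0.102) and Ccl20 (-0.002). Without the extra 3 rows Ccl7 turned for EpiSC against aCF (-0.174) and EpiSC against CF (-0.006), and Ccl2 (1.322), Ccl7 (0.168), Ccl12 (-0.254) and Ccl8 (-0.498) for aCF against CF, with 1 member passing Bonferroni adjustment for aCF against CF and 1 for EpiSC against CF. If the inferred displacement holds, these pairings give each name another gene's values, but no source states that displacement. Without aCF4 and aCF5 Ccl12 (-0.03) and Ccl8 (-0.297) turned for aCF against CF under either adjustment. With 1 array left out, aCF against CF ranged from -0.08 to 0.475 for Ccl8, -0.025 to 0.06 for Ccl12 and -0.0975 to 0.015 for Ccl22, and EpiSC against CF from -0.0175 to 0.095 for Ccl22. The cause of the other changes was not tested.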
